A study of Homo sapiens with 3 samples.

Results

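Mitochondrial ribosomal protein genes were taken as every symbol in the deposited expression table that starts with MRPL or MRPS and goes on with a number and at most 1 letter from A to C, with pseudogenes left out. This gave 75 of the 29689 listed genes, 46 with the large subunit symbol MRPL and 29 with the small subunit symbol MRPS. Genes are grouped by this symbol below, also the few whose place in the structure differs from it. Expression was measured by RNAseq in 3 xenograft tumors of SUM-149, an established human triple-negative breast cancer (TNBC) cell line, which was mixed with Matrigel and implanted into the mammary fat pad of female Nu/Nu mice, a strain without T cells. The tumors were treated with vehicle, for a time that its sample label does not give, or for 10 days with the CDK2 inhibitor dinaciclib (CDK2i), which also acts on further cyclin-dependent kinases, or the EZH2 inhibitor EPZ6438 (EZH2i). The text of the study names GSK343 as the EZH2 inhibitor given to SUM-149 xenografts, and the name on the sample labels was kept here. There was 1 library per treatment, so no difference below has a replicate check and no p-value was computed. The sources used here do not say whether a library came from 1 mouse or from pooled mice.

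The mitochondrial ribosome (mitoribosome) sits at the inner membrane of mitochondria and translates the mRNAs of the mitochondrial genome, which encode core subunits of the respiratory chain and of ATP synthase. Its ribosomal RNAs are transcribed inside the organelle, while all of its proteins are encoded in the nucleus, made by cytosolic ribosomes and imported. The small subunit binds the mRNA and decodes it, and the large subunit forms the peptide bonds and holds the exit tunnel. Some of the proteins descend from those of the bacterial ribosome and others exist only in mitochondria.

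The values are log2 FPKM, that is log2 of fragments per kilobase of transcript per M fragments (M, 1e6 fragments), and a difference of 1 is a 2-fold change. The libraries held about 16.8 to 19.1 M fragments, a depth inferred from the steps between the FPKM values of weak genes. A gene was called expressed with a mean log2 FPKM above 1 over the tumors and no value at −9, which the table lists for genes at 0. The basal-like markers KRT5, KRT6A, KRT14, KRT17, EGFR, CDH3 and TP63 and the general epithelial marker EPCAM, which is not particular to basal-like cells, were all expressed in the tumors, and their summed FPKM was 6390 in the vehicle, 15300 in the CDK2i and 6230 in the EZH2i tumor. The summed FPKM of 6 leukocyte markers stayed between 2.15 and 3.29, and that of 3 endothelial markers between 0.466 and 0.833. PTPRC and CD68 were at or near 0, while ITGAM was expressed, at 3.07 FPKM in the vehicle, 2.97 in the CDK2i and 1.94 in the EZH2i tumor. For 6 fibroblast markers the sums were 20.6, 36.9 and 27.9 in the same order, with PDGFRA, PDGFRB and COL1A2 below 1 FPKM. The expressed fibroblast markers were COL1A1 at 13.0, 25.1 and 16.1 FPKM, LUM at 4.53, 9.19 and 6.95, and DCN at 2.75, 1.7 and 4.67. The receptor genes that TNBC lacks or holds at low levels were ESR1 and PGR, which fell short of the expression definition, and ERBB2, at log2 FPKM 4.93, 4.92 and 4.46. ESR1 was detected at 0.792, 1.1 and 0.953 FPKM in the vehicle, CDK2i and EZH2i tumors, and PGR was at or near 0. The part of these other genes in the results below was not tested. A human genome was the reference for the reads, while the host cells in these tumors are mouse cells. The leukocyte, endothelial and fibroblast values therefore do not measure how many host cells were present.

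Of the 75 mitochondrial ribosomal protein genes, 70 were expressed, 43 for the large and 27 for the small subunit, and none was at −9 in any tumor. In the vehicle tumor the expressed MRPL genes had a median of 4.68 and the MRPS genes of 4.23 on the log2 FPKM scale, against 3.27 for all 11109 expressed genes. All 75 genes together made up 0.478%, 0.442% and 0.479% of the summed FPKM of the vehicle, CDK2i and EZH2i tumors. Cytosolic ribosomal protein genes took far more, with 15.4%, 8.68% and 8.33%.

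The level ranged widely among genes whose proteins stand in the same particle. The mitochondria-specific small subunit gene MRPS34 was at 7.01, 7.19 and 6.70 in the vehicle, CDK2i and EZH2i tumors, the highest mean of all members. MRPL51, also mitochondria-specific, led the large subunit with 6.99, 6.88 and 6.80. The next MRPL genes by mean level were MRPL37, MRPL14, MRPL23 and MRPL41, and the next MRPS genes were MRPS18B, MRPS26, MRPS12 and MRPS15. The lowest expressed gene of each symbol group was MRPL50 with 2.84, 1.95 and 3.25 and MRPS30 with 1.38, 0.37 and 1.96. In both of them the CDK2i tumor was the lowest and the EZH2i tumor the highest of the 3.

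**Figure D1:**
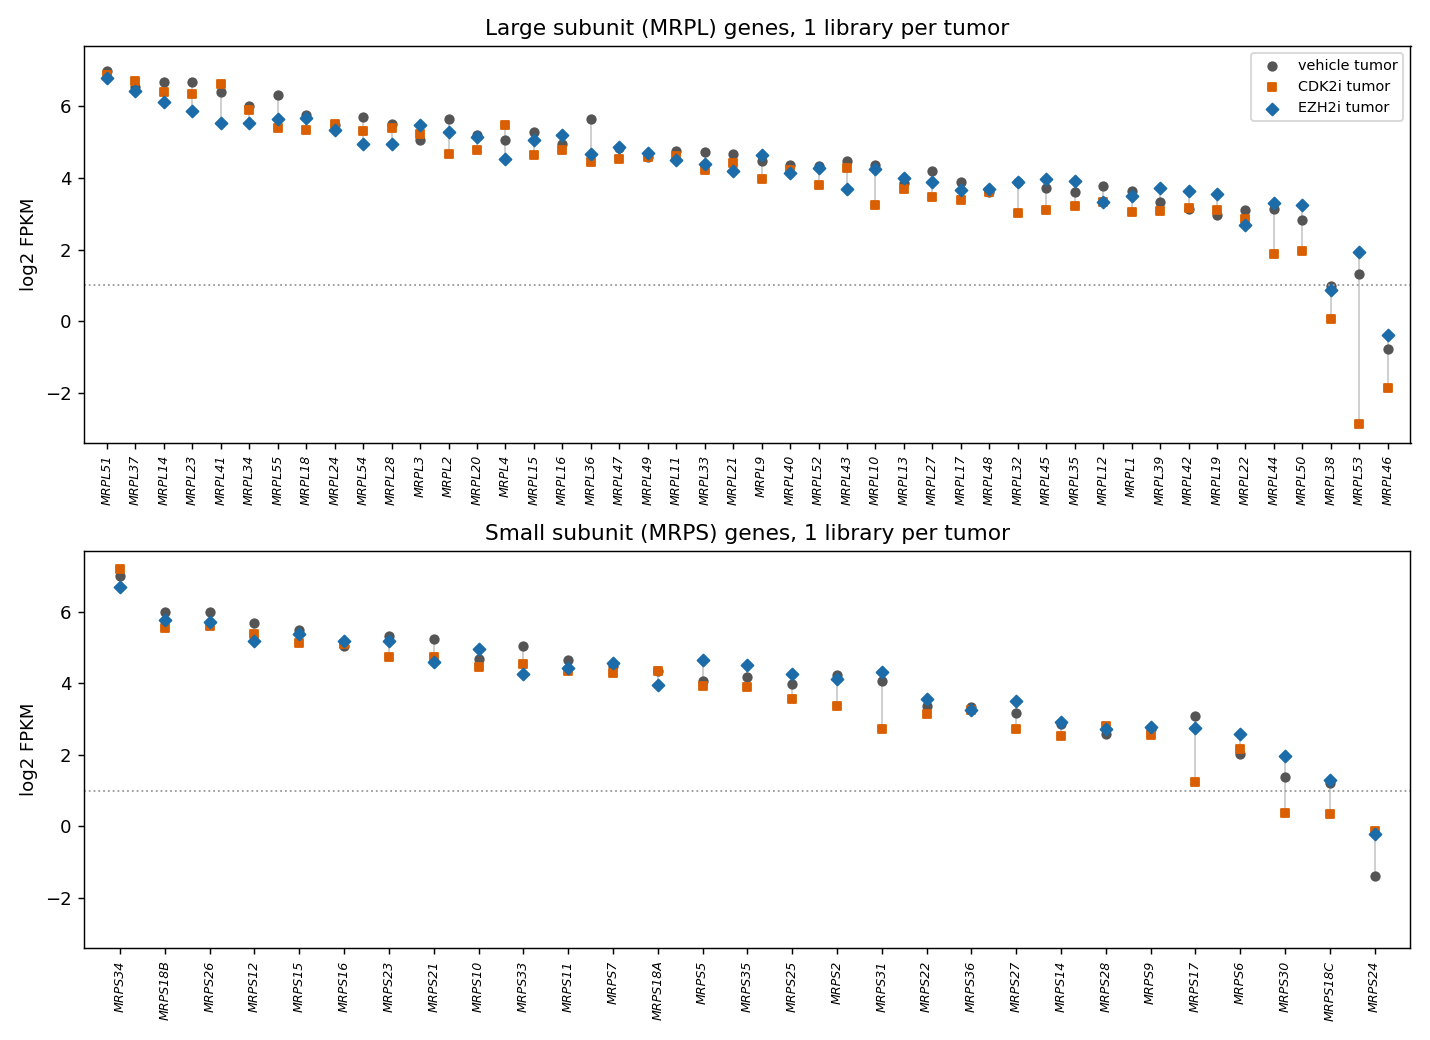
Level of each of the 75 genes (log2 FPKM, vertical axis) in the vehicle, CDK2i and EZH2i tumors, with the genes of each subunit ordered by their mean; each point is 1 library, the gray line joins the lowest and highest tumor, and the dotted line marks log2 FPKM 1. The levels run from above 6.5 for MRPL51, MRPL37 and MRPS34 down to the 5 genes with a mean below 1, and MRPS17, MRPL44 and MRPS31 have their CDK2i point far below the other points.

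The question of the first comparison was how treatment with CDK2i went with the expression of these genes. In the CDK2i tumor 58 of the 70 expressed genes were lower than in the vehicle tumor, 35 of 43 MRPL and 23 of 27 MRPS genes. Over all expressed genes 58.0% were lower. The median difference was −0.29 for MRPL and −0.31 for MRPS genes, against −0.11 for all expressed genes, so the subunits lay 0.02 apart and 0.18 to 0.20 below the median gene. Most genes moved little, with quartiles of −0.52 and −0.13 over the 70 genes and an extreme of 0.42 on the higher side, reached by MRPL4. Among the MRPS genes, MRPS28, at 2.58 in the vehicle and 2.80 in the CDK2i tumor, had the largest difference on the higher side. After MRPS17 and MRPS31 the weak gene MRPS30 had the largest on the lower side, −1.01. FPKM values of bulk tumor RNA are relative to the fragments of the library. A change in the RNA of each cell and a change in the mix of cells therefore cannot be told apart. The size of the medians depended on how the libraries were scaled, and after setting the median gene of each library to 0 they were −0.11 and −0.13 with 27 of 43 and 19 of 27 genes lower.

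By the thresholds of the study's methods, a fold change above 2 with the higher of the compared values above log2 FPKM 3, 5 of the 64 genes that reached this minimum were lower in the CDK2i tumor and 0 were higher. This is 7.8% lower, and the share over all genes was 8.07% lower and 3.27% higher, so the count of large changes among the mitochondrial ribosomal protein genes was near the background. The 5 genes were MRPL10, MRPL36 and MRPL44 of the large subunit and MRPS17 and MRPS31 of the small subunit.

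MRPS17, a small subunit protein with a bacterial homolog that binds the ribosomal RNA, had the largest change. It stood at 3.09 in the vehicle, 1.25 in the CDK2i and 2.76 in the EZH2i tumor, or about 255, 81 and 211 fragments. The CDK2i tumor was thus far below both others. The difference to vehicle was −1.84, 3.57-fold lower, with a 95% interval of −2.22 to −1.48. This and the following intervals cover counting error of the approximate fragment counts only.

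MRPS31 encodes a mitochondria-specific protein of the small subunit. Its values were 4.06, 2.71 and 4.31 in the vehicle, CDK2i and EZH2i tumors, so that the CDK2i tumor was the low one, with a difference of −1.35 (counting interval −1.61 to −1.10). MRPL44, a mitochondria-specific protein of the large subunit with a fold related to ribonucleases, had the same order with 3.13, 1.88 and 3.30 and a difference of −1.25 (−1.57 to −0.92). MRPL10, which anchors the stalk that recruits translation factors, was at 4.37, 3.24 and 4.26. Its difference was −1.13 (−1.33 to −0.93) in CDK2i and −0.11 in EZH2i, so here too the CDK2i tumor was the low one.

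MRPL36, a short zinc-binding protein of bacterial origin, differed from the other called genes in that both treated tumors were low. It had 5.65 in the vehicle, 4.43 in the CDK2i and 4.68 in the EZH2i tumor, about 512, 252 and 273 fragments. The differences to vehicle were −1.21 (−1.44 to −0.99) in CDK2i and −0.97 (−1.19 to −0.76) in EZH2i, and both use the same vehicle library. Under the scalings, pseudocounts and trend removal tried, the CDK2i difference of the 5 genes stayed negative, from −0.94 for MRPL10 to −1.98 for MRPS17. After centring and with equal summed FPKM, 4 genes passed in place of 5, since MRPL10 then fell short of a 2-fold difference (−0.94 and −0.98).

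The DNA just upstream of MRPL36, MRPL44, MRPS17 and MRPS31 is given so that the regulatory context of the genes with the largest changes can be read. Each stretch was read 5′ to 3′ on the strand of its gene from GRCh37 and lies within the 250 bases before the transcript start, trimmed to bases that no annotated exon covers. For MRPL44 and MRPS31 it ends at the transcript start, for MRPL36 58 bases and for MRPS17 84 bases before it. Capitals mark matches on either strand to 5 motifs, which are the ETS family motif CCGGAAG (bound by GABPA among others), the NRF1 motif GCGCANGCG, the YY1 motif AAGATGGC, the E-box CACGTG and the GC box GGGCGG. NRF1 and GABPA are known as regulators of nuclear genes for mitochondrial proteins.
MRPL36, chr5:1800010-1800201, minus strand: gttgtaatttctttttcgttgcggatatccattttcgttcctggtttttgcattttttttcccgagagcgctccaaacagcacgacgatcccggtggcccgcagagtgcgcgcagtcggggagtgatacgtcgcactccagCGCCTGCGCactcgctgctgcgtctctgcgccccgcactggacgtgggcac
MRPL44, chr2:224821930-224822179, plus strand: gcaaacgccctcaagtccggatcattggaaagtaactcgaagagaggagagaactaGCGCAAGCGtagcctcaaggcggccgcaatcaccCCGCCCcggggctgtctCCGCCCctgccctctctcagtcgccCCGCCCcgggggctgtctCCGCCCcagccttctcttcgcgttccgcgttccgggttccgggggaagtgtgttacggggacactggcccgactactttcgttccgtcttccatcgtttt
MRPS17, chr7:56019320-56019485, plus strand: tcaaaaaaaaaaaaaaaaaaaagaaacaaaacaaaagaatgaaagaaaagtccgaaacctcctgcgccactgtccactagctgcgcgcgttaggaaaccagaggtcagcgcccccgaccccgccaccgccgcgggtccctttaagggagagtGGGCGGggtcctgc
MRPS31, chr13:41345327-41345576, minus strand: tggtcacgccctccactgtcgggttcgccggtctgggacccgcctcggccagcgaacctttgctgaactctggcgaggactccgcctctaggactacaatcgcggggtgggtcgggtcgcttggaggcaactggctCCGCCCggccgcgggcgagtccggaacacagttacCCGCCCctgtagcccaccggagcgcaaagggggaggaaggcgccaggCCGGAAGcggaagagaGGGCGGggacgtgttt

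The ETS motif stands in the stretch of MRPS31, the NRF1 motif in those of MRPL36 and MRPL44, and GC boxes in those of MRPL44, MRPS17 and MRPS31. In the whole 250 bases MRPL36 also holds the YY1 motif and the E-box. Among the 250-base windows of all 75 genes the ETS motif was found in 24 (32.0%), against 12.9% of 15723 protein-coding genes and 17.4% of the 9243 expressed ones. The NRF1 motif was found in 12 (16.0%, against 10.7% and 14.6%), the YY1 motif in 5 (6.7%, against 1.5% and 1.9%), the E-box in 7 (9.3%, against 8.3% and 9.5%) and the GC box in 43 (57.3%, against 64.3% and 74.3%). The 5 genes with the YY1 motif were MRPL32, MRPL36, MRPL47, MRPL52 and MRPS12. The median CDK2i difference was −0.34 for the genes with the ETS motif and −0.31 for those without, and −0.50 and −0.29 for the genes with and without the NRF1 motif. It was −0.54 and −0.26 with and without the YY1 motif, −0.43 and −0.31 for the E-box and −0.31 on both sides for the GC box. In EZH2i the medians with each motif lay between −0.18 and −0.08. A match is a description of the letters and not evidence of a bound factor.

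Many of these genes also share their upstream DNA with a neighbor. For 24 of the 75 genes (32.0%) the nearest start on the other strand lay within 1000 bases in the divergent direction, against 10.1% of all protein-coding genes and 13.8% of the expressed ones. It was 17 of 46 MRPL and 7 of 29 MRPS genes. MRPL46 and MRPS11 form such a pair with each other, 320 bases apart. MRPL49 shares 187 bases with FAU, which encodes a cytosolic ribosomal protein, and its levels of 4.59, 4.57 and 4.70 differed less between tumors than those of FAU, 7.20, 6.41 and 6.10. MRPL47 shares 156 bases with NDUFB5, a subunit of respiratory complex I. On the deposited scale both were lower in CDK2i, by differences of −0.30 and −0.17, while their EZH2i differences to vehicle were 0.03 and −0.55. MRPL27 was at 4.20, 3.46 and 3.89, and its partner EME1, 45 bases away, at 2.74, 0.74 and 3.13.

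Among the large subunit proteins, the 29 expressed genes with a bacterial homolog had a median CDK2i difference of −0.40, and 25 of them were lower. For the 14 mitochondria-specific MRPL genes it was −0.17, with 10 lower. In the small subunit the order was the other way, with −0.26 for the 14 genes with a bacterial homolog (11 lower) and −0.44 for the 10 mitochondria-specific ones (9 lower). Over all expressed genes 58.0% were lower. These subgroups are small and their quartiles overlapped.

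The stalk that contacts translation factors is built from MRPL12 on MRPL10, beside MRPL11, MRPL53 and MRPL54. Over all expressed genes 58.0% were below vehicle in CDK2i and 38.5% in EZH2i. On the deposited scale all 4 expressed stalk genes were below vehicle in both treated tumors. In EZH2i this did not hold with the trend over GC content and length removed, where MRPL10, MRPL12 and MRPL54 had differences of 0.24, 0.44 and 0.11 and MRPL11 was at 0, and MRPL10 was also above vehicle, by 0.14, with equal summed FPKM. MRPL12 had 3.77, 3.32 and 3.33, and MRPL54 had 5.72, 5.32 and 4.94 in the vehicle, CDK2i and EZH2i tumors. MRPL11, at 4.75, 4.60 and 4.50, had the smallest CDK2i difference of the 4, which became 0.03 after centring and 0.0 with equal summed FPKM. Of the 8 genes around the exit tunnel, through which the new peptide leaves, 7 were lower in CDK2i, with MRPL45, which holds the ribosome to the inner membrane, at 3.71, 3.09 and 3.97. The exception was MRPL24, at 5.48, 5.51 and 5.34. MRPL23, at the rim of the tunnel, had 6.68, 6.34 and 5.86 and was lowest in EZH2i, whereas MRPL39, at 3.33, 3.07 and 3.73, was highest there. The CDK2i differences of MRPL17, MRPL22 and MRPL47 were −0.53, −0.25 and −0.30.

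Around the decoding site and the mRNA channel of the small subunit, all 4 expressed genes were below vehicle in CDK2i on the deposited scale. The share over all expressed genes was 58.0%. The CDK2i difference of MRPS5 was −0.16 as deposited and 0.02 after centring. MRPS2 was at 4.23, 3.36 and 4.12, and its CDK2i value was the lowest. MRPS12, whose bacterial homolog takes part in decoding accuracy, was at 5.70, 5.38 and 5.18, lower in both treated tumors. MRPS5 at 4.07, 3.91 and 4.64 and MRPS35 at 4.16, 3.91 and 4.50 were instead highest in the EZH2i tumor. With the trend over GC content and length removed, the EZH2i differences of MRPS2, MRPS12, MRPS5 and MRPS35 were 0.51, 0.24, 0.31 and 0.20, so the split between them depends on that trend.

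The second comparison asked the same of EZH2i. The picture was split, with 28 of 43 MRPL genes but 13 of 27 MRPS genes below vehicle, 41 of 70 in all, where 38.5% of all expressed genes were lower. The median difference was −0.14 for MRPL and 0.05 for MRPS genes, so the large subunit lay 0.19 below the small one, and 0.34 and 0.15 below the median of 0.19 over all genes. Neither sign is firm, since both medians were below 0 after this centring (−0.39 and −0.20) and above 0 with equal summed FPKM (0.10 and 0.29). These scalings moved the median of all expressed genes from −0.11 to 0.07 and 0.04 in CDK2i and from 0.19 to −0.06 and 0.43 in EZH2i, so a median nearer to 0 than such a shift, for any list given here, changes sign with the scaling. None of the 65 genes that reached the minimum passed the fold threshold in EZH2i in either direction, against 4.42% lower and 8.93% higher over all genes. The nearest was MRPL36, and with no replicate this count has no test.

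The largest EZH2i differences in the large subunit after MRPL36 were those of MRPL41 and MRPL23. MRPL41, mitochondria-specific, stood at 6.42 in the vehicle, 6.62 in the CDK2i and 5.54 in the EZH2i tumor, a difference of −0.87 in EZH2i (−1.04 to −0.71), and on the deposited scale the EZH2i tumor alone was low. MRPL23 differed by −0.82. In the small subunit MRPS33, at 5.05, 4.55 and 4.26, had the largest difference on the lower side, −0.79, followed by MRPS21 (5.24, 4.73 and 4.60) and MRPS12. On the higher side stood MRPL19, at 2.97, 3.10 and 3.54, MRPL42, at 3.12, 3.16 and 3.63, and MRPL3, at 5.06, 5.22 and 5.49. Each of these 3 was lowest in vehicle and highest in EZH2i. The MRPS genes highest in EZH2i relative to vehicle were MRPS30 (0.59), MRPS5 (0.57) and MRPS6 (0.55), with MRPS30 and MRPS6 among the weakest expressed. With the trend over GC content and length removed, the EZH2i difference changed sign for MRPL41 (0.17), MRPL23 (0.16), MRPS12 (0.24), MRPL19 (−0.10) and MRPL42 (−0.18). It kept its sign for MRPL36 (−0.46), MRPS33 (−1.20), MRPS21 (−0.36), MRPL3 (0.38), MRPS30 (0.67), MRPS5 (0.31) and MRPS6 (0.85). The trend used transcript lengths of 15557 bases for MRPL42, 7825 for MRPL19 and 4210 for MRPS33, against a median of 1242 over the 70 genes. The gene lengths behind the deposited FPKM are not given, so the values of MRPL42, MRPL19 and MRPS33 without the trend are uncertain.

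The difference between the subunits in EZH2i moved with base composition. The GC content of the representative transcripts was 50.4% at the median of MRPL and 46.6% of MRPS genes, and the median lengths were 1175 and 1458 bases. Across the 70 genes, which are not independent replicates, the EZH2i difference had a Spearman correlation of −0.621 with GC content and 0.498 with length, and the CDK2i difference of 0.07 and −0.053. The same held over 9583 expressed genes with a known transcript, with −0.574 and 0.494 for EZH2i. Of the 35 members with a GC content of 48.0% or more, 26 of them MRPL genes, 30 were lower in EZH2i and the median was −0.30. Of the 35 below it, 17 of them MRPL genes, 11 were lower and the median was 0.16. The CDK2i medians of the same groups were −0.31 and −0.32. With the trend over GC content and length removed, the EZH2i medians were 0.16 for MRPL and 0.20 for MRPS genes, 0.04 apart, where all genes had 0.23. What produced this trend was not tested.

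**Figure D2:**
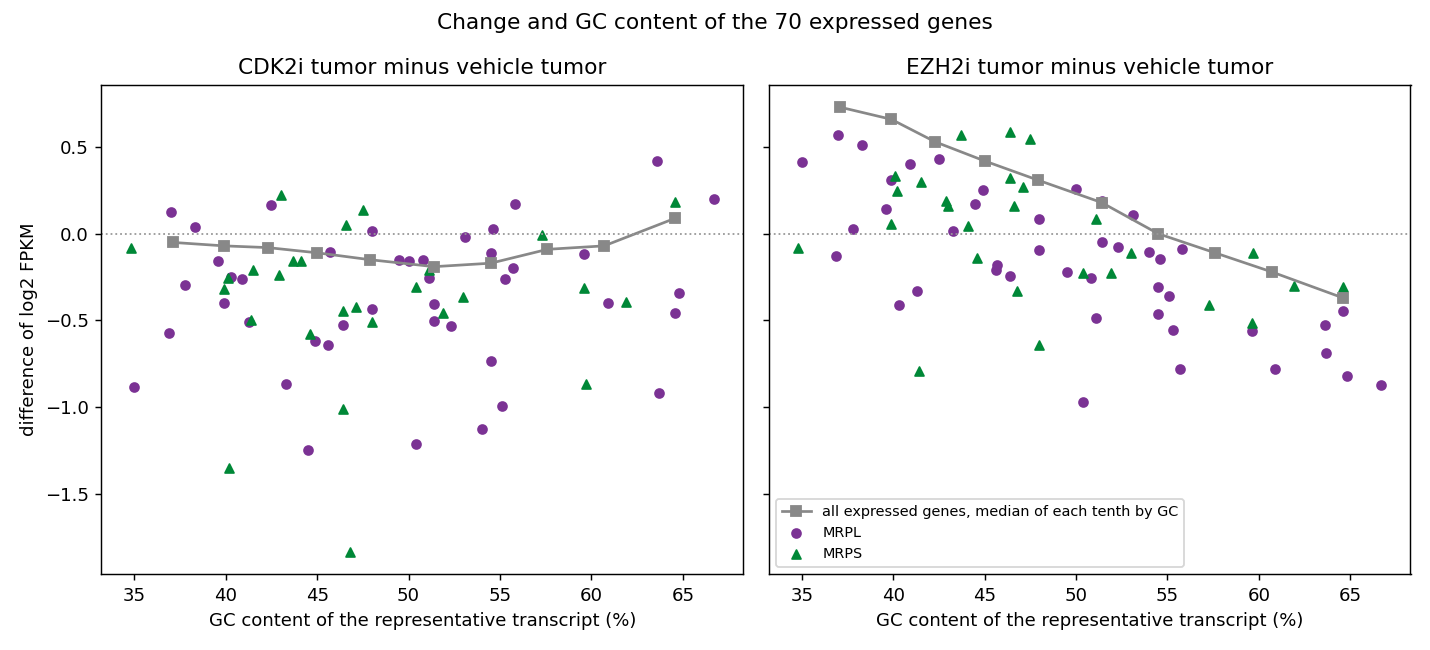
Difference of each expressed gene from vehicle (log2 FPKM, vertical axis) against the GC content of its transcript (%, horizontal axis) in the CDK2i and EZH2i tumors, with circles for MRPL genes, triangles for MRPS genes and the gray line for the medians of all expressed genes in 10 bins by GC content. The line falls from 0.73 to −0.37 in EZH2i and stays between −0.19 and 0.09 in CDK2i, and the 70 genes slope downward in EZH2i only.

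**Figure D3:**
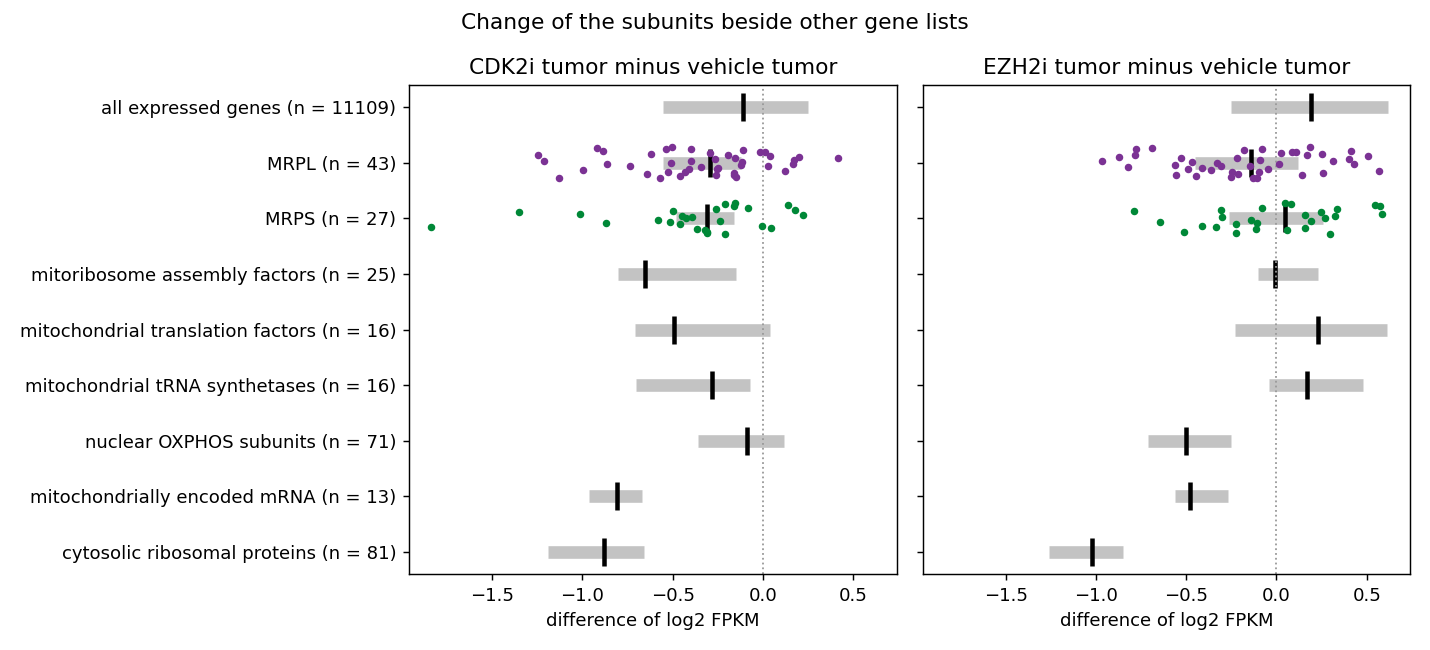
Difference from vehicle (log2 FPKM, horizontal axis) of the expressed genes of each list in the CDK2i and EZH2i tumors, where the black mark is the median, the gray bar the quartiles and the points the single MRPL and MRPS genes. The MRPL and MRPS medians (−0.29 and −0.31 in CDK2i, −0.14 and 0.05 in EZH2i) lie between those of all expressed genes and of the cytosolic ribosomal proteins (−0.88 and −1.02).

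Compared directly, without the vehicle library that both other comparisons share, the EZH2i tumor had higher values than the CDK2i tumor for 28 of 43 MRPL and 20 of 27 MRPS genes. Thus 15 and 7 were lower, where 33.0% of all expressed genes were lower. The medians were 0.27 and 0.29 against 0.35 for all genes, and after centring they turned to −0.17 and −0.14. Of 63 genes above the minimum, 4 were more than 2-fold higher in EZH2i (MRPL10, MRPL44, MRPL50 and MRPS31) and 1 was lower (MRPL41), against 17.5% higher and 6.53% lower over all genes. The differences were 1.02 for MRPL10, 1.42 for MRPL44, 1.30 for MRPL50 and 1.59 for MRPS31, and −1.07 for MRPL41. Under the scalings, pseudocounts and trend removal tried, the difference of MRPS31 stayed above 1, with a lowest value of 1.16. The lowest values of MRPL10, MRPL44 and MRPL50 were 0.59, 0.99 and 0.87, short of a 2-fold difference, and that of MRPL41 ran from −1.50 to 0.15, which changes its sign. MRPS17 was 2.83-fold higher but did not reach the minimum in these tumors. The opposite extreme after MRPL41 was MRPL4, at 5.06 in the vehicle, 5.48 in the CDK2i and 4.53 in the EZH2i tumor. MRPL4 was also the gene with the largest difference on the higher side in CDK2i. With the trend over GC content and length removed, its differences to vehicle were 0.34 in CDK2i and 0.27 in EZH2i. Its place as an extreme between EZH2i and CDK2i thus depends on that trend, while in CDK2i it stayed above vehicle. Taking the 3 tumors at once, the CDK2i tumor was the lowest for 42 of the 70 genes, against 47.5% of all expressed genes. The vehicle tumor was the highest for 36 and the EZH2i tumor for 28, against 24.2% and 53.3% of all expressed genes.

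The other ribosome of the cell differed more from vehicle. The 81 expressed cytosolic ribosomal protein genes had medians of −0.88 in CDK2i and −1.02 in EZH2i, and of the 77 above the minimum 37.7% and 58.4% were more than 2-fold lower, against 8.07% and 4.42% of all genes. The 71 expressed nuclear genes for subunits of oxidative phosphorylation (OXPHOS), the partners of the proteins that the mitoribosome makes, had −0.09 and −0.50. In CDK2i the mitochondrial ribosomal protein genes thus lay 0.20 below the median gene and the OXPHOS genes 0.02 above it. In EZH2i they lay 0.30 and 0.69 below. With the trend over GC content and length removed, the EZH2i medians relative to all expressed genes were −0.08 for MRPL and −0.04 for MRPS genes. Such values are not given here for the OXPHOS and cytosolic ribosomal protein genes. The 13 mRNAs of the mitochondrial genome, the templates of the mitoribosome, were all lower in both treated tumors on the deposited scale, with medians of −0.81 and −0.48. Over all expressed genes 58.0% were lower in CDK2i and 38.5% in EZH2i. MT-CO1, for a subunit of cytochrome oxidase, was at 13.99, 13.46 and 13.79 log2 FPKM. The mitochondrial ribosomal RNAs have no entry among the listed symbols and were not analysed here.

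The other genes of mitochondrial translation were the assembly factors, the translation factors and the tRNA synthetases. Of 25 expressed assembly factors, 23 were lower in CDK2i (58.0% of all expressed genes), with a median of −0.65, and 5 of the 16 above the minimum were more than 2-fold lower (8.07% of all genes). DDX28, an RNA helicase of large subunit assembly, had 3.34, 0.35 and 3.08 in the vehicle, CDK2i and EZH2i tumors. RNMTL1, which methylates the large ribosomal RNA, had 4.21, 2.20 and 4.18, and so was low in CDK2i alone. The other called assembly genes were GTPBP5, FTSJ2 and RPUSD4. In EZH2i the median of the assembly factors was −0.01 and 14 were lower (38.5% of all expressed genes). The 16 translation factors had medians of −0.49 and 0.23, with the initiation factor MTIF3 at 3.71, 2.63 and 3.46 and the elongation factor TUFM at 8.21, 8.30 and 7.68. For 16 expressed mitochondrial tRNA synthetases the medians were −0.28 and 0.17.

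Among 11 expressed regulators of mitochondrial biogenesis the medians were −0.11 for CDK2i and 0.32 for EZH2i. Of 7 above the minimum in CDK2i, 2 were called lower and 1 higher, against 8.07% and 3.27% of all genes. Of 8 in EZH2i, 0 were called lower and 1 higher, against 4.42% and 8.93%. PPRC1, a coactivator of the PGC-1 family, was at 3.22, 1.51 and 4.0, and GABPB1, the partner of GABPA, at 3.64, 2.24 and 3.46, and both were more than 2-fold lower in CDK2i. GABPA itself was at 1.43, 2.03 and 2.62, higher in both treated tumors, and NRF1 at 2.18, 0.92 and 2.61, and neither reached the minimum. MYC, in contrast, was at 6.32, 7.51 and 6.03, more than 2-fold higher in CDK2i. TFAM, which packages the mitochondrial genome, was at 2.62, 2.87 and 3.82. On the deposited scale it was more than 2-fold higher in EZH2i, with a difference of 1.2. Calls of these regulators under the other scalings are not given here.

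A few members carry names that do not match their place. MRPS18A and MRPS30 sit in the large subunit of the structure, and their values were 4.35, 4.35 and 3.94 for MRPS18A and, as given above, far lower for MRPS30. MRPS36, now known as a component of the oxoglutarate dehydrogenase complex, was at 3.33, 3.25 and 3.25, with a difference of −0.08 in both treated tumors. Another 7 mitoribosomal proteins have other symbols, and their medians were −0.42 in CDK2i and −0.14 in EZH2i. ICT1, a peptide-releasing protein of the large subunit, was at 4.74, 3.77 and 4.65, and DAP3, of the small subunit, at 5.39, 5.30 and 5.62.

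Another 5 members had a mean log2 FPKM below 1, namely MRPL38, MRPL46, MRPL53, MRPS18C and MRPS24. In the GENCODE 44 annotation on GRCh37 they are 5 of the 6 members with at least 70% of their exon bases shared with another gene on 1 strand, a value chosen after the data were seen. The sixth was MRPS5, with 97.1% shared and a mean of 4.21. All 24 members with a smaller overlap were expressed. Among them were MRPL12, with 69.5% shared and a mean of 3.47, and MRPS18A, with 60.6% and 4.21. All 45 members without any such overlap were expressed. The 94.3% of MRPL38, 73.4% of MRPL46, 99.2% of MRPL53 and 90.9% of MRPS24 are shared with a gene on the same strand, and the 83.6% of MRPS18C with ABRAXAS1 on the opposite strand. How reads in shared exons were counted, and whether with regard to strand, is not given in the sources used here, so the levels of these genes are uncertain and the part of the overlap in them was not tested. MRPL53 rested on about 21, 1 and 33 fragments, and its CDK2i difference of −4.22 (18.6-fold lower) had a counting interval of −9.95 to −1.95. MRPS24 had about 4, 12 and 10 fragments and MRPL46 about 10, 5 and 13. The table also lists 19 pseudogenes of these genes, of which MRPL45P2 alone had a value above 1 (2.55, 1.07 and 1.30), and reads of MRPL45 and MRPL45P2 may not be fully separable.

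**Figure D4:**
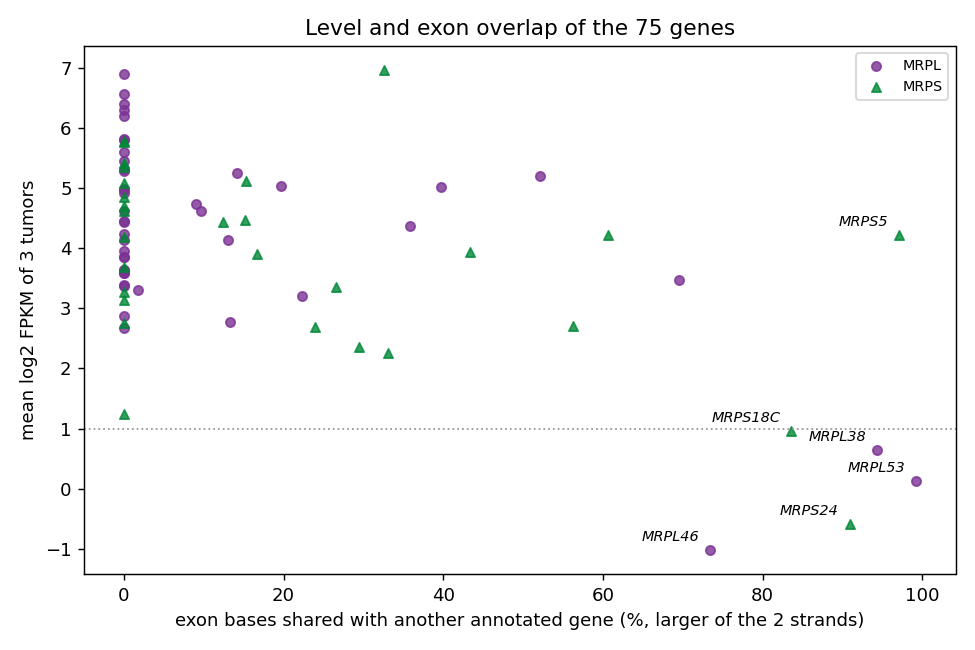
Mean log2 FPKM of the 3 tumors (vertical axis) against the share of exon bases that overlap another annotated gene (%, larger of the strands, horizontal axis), with circles for MRPL and triangles for MRPS genes and a dotted line at 1. The 5 genes below the line all have an overlap of at least 70%, which MRPS5 alone shares among the genes above it. MRPL12, also above the line, has 69.5%.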

How the data were processed

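RNAseq libraries of 3 SUM-149 xenograft tumors were analysed. The authors deposited log2 FPKM per gene symbol, and the submitters' processing notes name CASAVA, STAR and the hg19 genome build. The counting tool, its gene lengths and its use of strand are not given in the sources used here. No pseudocount was added, and changes are differences of the deposited log2 values between libraries. With 1 library per group no test was made. Expressed genes had no value at −9 and a mean above 1 on the log2 scale. Calls needed a fold above 2 and the higher value above 3, after the study's methods without its p-value. Depth was inferred from weak genes, of which 72.1% to 73.1% fell within 0.02 of a whole fragment number, so fragment numbers are approximate. The 95% intervals on differences come from exact (Clopper-Pearson) binomial bounds on these numbers. Positions, GC content, lengths and overlaps came from GENCODE 44 on GRCh37, which matched all 75 genes and 86.3% of expressed genes. Protein sequences were not analysed here, and the upstream sequence of MRPL10 is not reported here. Named genes were members past the thresholds, the highest, lowest and most changed of each subunit and comparison, and the functional lists, with the strongest or most changed genes of the other lists as examples. MRPL49, MRPL27 and the neighbors FAU, NDUFB5 and EME1 were chosen after their values were seen. The members and lists were chosen with earlier results of these data known. Alternatives were pseudocounts of 1 and 0.1 FPKM, other scalings, other thresholds, a GC and length trend of degree 3, and other choices of members. Scripts ran in Python 3.11.15 with numpy 2.4.6, pandas 2.3.3, scipy 1.17.1 and matplotlib 3.10.9, and were tested on simulated data.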

Additional observations from a re-analysis of the deposited data

How the results depend on the processing

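The scaling between libraries set the size of every median. In CDK2i the MRPL and MRPS medians were −0.11 and −0.13 after setting the median gene of each library to 0 (centred), −0.15 and −0.16 with equal summed FPKM, and −0.44 and −0.46 with equal sums without cytosolic ribosomal protein and mitochondrially encoded genes. The MRPS median was −0.42 over genes that overlap no other gene. All alternatives kept the CDK2i medians below 0. In EZH2i the MRPL median was −0.39 when centred, 0.10 with equal sums and 0.16 with the GC and length trend removed. The MRPS median was −0.20 when centred, 0.29 with equal sums, 0.20 without the trend, −0.11 over genes with a mean above 3 and −0.10 over genes without overlap. The MRPL minus MRPS difference in EZH2i shrank to −0.04 without the trend and −0.05 over genes with a mean above 3. Between EZH2i and CDK2i the medians were −0.17 and −0.14 when centred, 0.45 and 0.47 with equal sums without those genes, and 0.42 for MRPS without the trend. The number of genes called in CDK2i was 12 with a fold above 1.5, 1 above 3, 9 without the expression minimum, 1 with a minimum of 5, 9 with the reduced sums, and 4 when centred or with equal sums. In EZH2i it was 8 with a fold above 1.5, 1 without the minimum, 6 when centred and 1 without the trend. The cause of these shifts was not tested. No paired analysis was possible because there was 1 library per group. Depth limits the members with fewer than about 100 fragments, among them MRPL53, MRPL46 and MRPS24.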
